A study of Mus musculus with 33 samples.

Results

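The distal and central *Trav* array is the part of the mouse *Tcra*-*Tcrd* locus that holds the V gene segments farthest from the J segments, from *Trav1* up to the border of *Trav14-3*. It was taken as all 264 bins of 5 kb between 52420001 and 53740000 of chromosome 14 (mm10), out of 24981 bins on the chromosome, and every read with at least 1 fragment in it was counted. Contacts were measured by 3C-HTGTS, in which crosslinked chromatin is cut with MboI, ligated and amplified from a biotinylated bait primer, so that a read which runs through the bait and 2 more fragments reports a three-way contact. All mice were C57BL/6 and Rag1-/-, so that no library comes from an animal able to rearrange its antigen receptor genes. Thymocytes of such mice were driven to the CD4+CD8+ double-positive (DP) stage by injection of an anti-CD3 antibody, and had the genotype CBE+/+Rag1-/- (DP WT, 16 libraries) or CBE-/-Rag1-/- (EACBE-/-, 9 libraries), while liver cells were CBE+/+Rag1-/- (8 libraries). EACBE is a CTCF-binding element (CBE) next to the enhancer Eα, and CBE-/- cells lack it. The baits were Eα, the TEA promoter (TEAp), INT2 and *Trav17*, each with 3 DP WT and 2 liver libraries, then *Trdd2* with 3 DP WT libraries and a second Eα primer with 1, and EACBE-/- thymocytes were assayed with 3 libraries each for Eα, TEAp and *Trav17*. The labels do not say that libraries of a group came from separate animals, so p-values measure the spread between libraries, which may be technical. No expression was measured, so the labelled cell types could not be checked against marker genes.

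A T cell receptor α chain is made by joining 1 V segment to 1 J segment. Where *Tcrd* is intact, the earliest joins in DP thymocytes mainly use the V segments nearest to the J segments. Rearrangement of *Tcrd* has been reported to favour central and distal V segments in these first joins. Later rounds of rearrangement reach farther up the V array. The V and J segments must meet in space first, and CTCF with cohesin, which holds chromatin loops, is known to shape the contacts of this locus. Eα is the enhancer that drives *Tcra* transcription in DP thymocytes, and TEAp is the promoter at the 5′ end of the J array that it activates. INT2 is a CTCF-binding element between the V segments and the *Tcrd* segments, and *Trdd2* is a D segment of *Tcrd*. In the mouse, the central V array was built by duplication, and the copies carry the suffixes d and n in their names.

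The annotation (GENCODE M21) places 138 genes in the array, 116 of which are V segments, 100 of them annotated as genes and 16 as pseudogenes. The first is *Trav1* (52427928 to 52428876) and the last is the pseudogene *Trav8-2* (53738375 to 53738838), both on the plus strand. The 39 segments with the suffix d lie between 52683964 and 53082520, the 34 with the suffix n between 53091346 and 53375279, and 42 have no suffix. When the array was divided into 4 equal parts from the *Trav1* end, these held 12, 35, 36 and 33 V segments. The bait fragments lie 64.7 kb (*Trav17*), 326 kb (INT2), 382 kb (*Trdd2*), 413 kb (TEAp) and 487 kb (Eα) beyond the end of the array, on the side of the J segments.

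Sequences from the most captured array bins are shown here because these bins belong to the peaks described in the next paragraphs. For each bait, the 3 bins with the largest mean share of the array fragments in DP WT were named, which gave 5 bins in all. Within each of them, the MboI fragment captured most often over the 13 DP WT libraries with single reads is printed from mm10, plus strand, with its MboI site in capitals. They lie at chr14:53707959-53708166, chr14:53715288-53715465, chr14:53672393-53672518, chr14:53655809-53655917 and chr14:53340663-53340714, in that order.
*Trav6-7-dv9* bin: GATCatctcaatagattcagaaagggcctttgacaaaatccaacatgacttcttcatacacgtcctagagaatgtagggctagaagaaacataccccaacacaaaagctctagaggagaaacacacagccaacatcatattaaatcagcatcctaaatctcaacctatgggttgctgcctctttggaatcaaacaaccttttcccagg
*Trav7-6* bin: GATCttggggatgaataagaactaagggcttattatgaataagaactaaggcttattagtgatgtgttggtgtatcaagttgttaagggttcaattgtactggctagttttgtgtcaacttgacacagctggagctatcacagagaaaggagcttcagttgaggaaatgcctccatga
bin without a gene, 67.5 kb from the end: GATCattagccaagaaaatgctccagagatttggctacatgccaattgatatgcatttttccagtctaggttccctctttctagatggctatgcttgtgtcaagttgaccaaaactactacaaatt
bin without a gene, 82.5 kb from the end: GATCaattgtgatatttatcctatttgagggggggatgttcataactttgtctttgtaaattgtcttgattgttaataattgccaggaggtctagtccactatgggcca
*Gm43650* bin: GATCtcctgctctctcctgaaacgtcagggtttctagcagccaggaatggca
The bin of *Trav6-7-dv9* (53705001 to 53710000) ranked first for all 6 baits, and the bin of *Trav7-6* (53715001 to 53720000) was among the named bins of all 6. These names mark the V segment that overlaps the bin. *Trav6-7-dv9* (53709902 to 53710419) only begins at the end of its bin. Neither its printed fragment nor that of the *Trav7-6* bin overlaps the V segment, which for *Trav7-6* spans 53716716 to 53717291. The bin from 53670001 to 53675000 was named for TEAp, INT2 and the second Eα primer, the bin from 53655001 to 53660000 for *Trav17*, and the bin from 53340001 to 53345000, where *Gm43650* is annotated, for Eα and *Trdd2*. The printed fragment of the *Trav6-7-dv9* bin made up 21.7% of the reads of its bin and was seen in 13 of 13 libraries. That of the *Gm43650* bin made up 41.3% and was seen in 13 of 13 libraries as well. That of the *Trav7-6* bin made up 26.9% (13 of 13 libraries). Those 67.5 kb and 82.5 kb from the end made up 17.4% and 34.6%, each seen in 12 of 13 libraries. Most captures of each bin thus lie in fragments not printed here. The outermost 50 bases of these fragments differ in how often they occur. Both ends of the *Gm43650* fragment and of the fragment 67.5 kb from the end of the array occur once in mm10, whereas 1 end of the *Trav7-6* fragment occurs 31 times and 1 end of the *Trav6-7-dv9* fragment 3 times. None of the 5 bins holds the core of the CTCF motif on either strand, searched as CCA, AG and GGC with 2 free letters between them (12 letters in all) and found in 21.2% of the array bins and 20.1% of the chromosome 14 bins without unknown bases. A missing match says only that these letters are not in these bins.

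The duplications limit what can be seen. An MboI fragment was called unique when at least 1 of its ends of 50 bases occurs only once on chromosome 14. Of the 3344 MboI fragments of the array, 1783 were unique, which is 53.3%, against 85.0% in the equally long stretch just upstream and 87.9% from the end of the array to the end of the published maps. Uniqueness fell in the duplicated middle. It was 76.8%, 24.4%, 31.7% and 76.6% in the 4 equal parts. Fragments with no unique end made up 4.44% of all captures in the array, and 7.94% of them were ever seen, against 60.1% of those with 1 unique end and 74.9% of those with 2. Of the 264 bins, 55 held no unique fragment, 218 were seen in at least 1 of the 25 DP libraries, 44 were seen in every one, and 33 of the 46 that were never seen held no unique fragment. A low count in the middle of the array is therefore no measure of absent contact.

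In DP WT thymocytes, the array was reached from every bait, and most often from *Trav17*, the bait nearest to it. The share of the reads with both fragments on chromosome 14 that had at least 1 fragment in the array was 8.07%, 7.09% and 9.03% in the 3 *Trav17* libraries (8.06% ± 0.97, SD, n = 3). From Eα it was 4.06%, 3.61% and 3.99% (3.89% ± 0.24, SD, n = 3), and the second Eα primer gave 2.75% in 1 library. From TEAp the libraries gave 2.93%, 3.196% and 3.03% (3.05% ± 0.13, SD, n = 3).
For *Trdd2* they gave 2.42%, 2.96% and 2.79% (2.72% ± 0.27, SD, n = 3), and for INT2 2.31%, 2.01% and 2.19% (2.17% ± 0.15, SD, n = 3). The first Eα primer, though farther from the array than INT2, *Trdd2* and TEAp, thus had a higher share than these in every library. This did not hold for the second Eα primer, on the next MboI fragment, whose 2.75% lay below all TEAp libraries and below 2 of the 3 *Trdd2* libraries. Between baits the libraries did not overlap in 9 of 10 pairs (exact two-sided permutation test, p = 0.1, adjusted p = 0.111 over the 10 pairs, where 0.1 is the smallest p that 3 against 3 libraries allow). *Trdd2* and TEAp overlapped (exact permutation p = 0.2), and their difference of -0.33 percentage points became 0.17 when each distinct pair of fragments was counted once. A share is set by the whole profile of its bait, including the reads that end beside it, and each bait has its own primer.

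**Figure D1:**
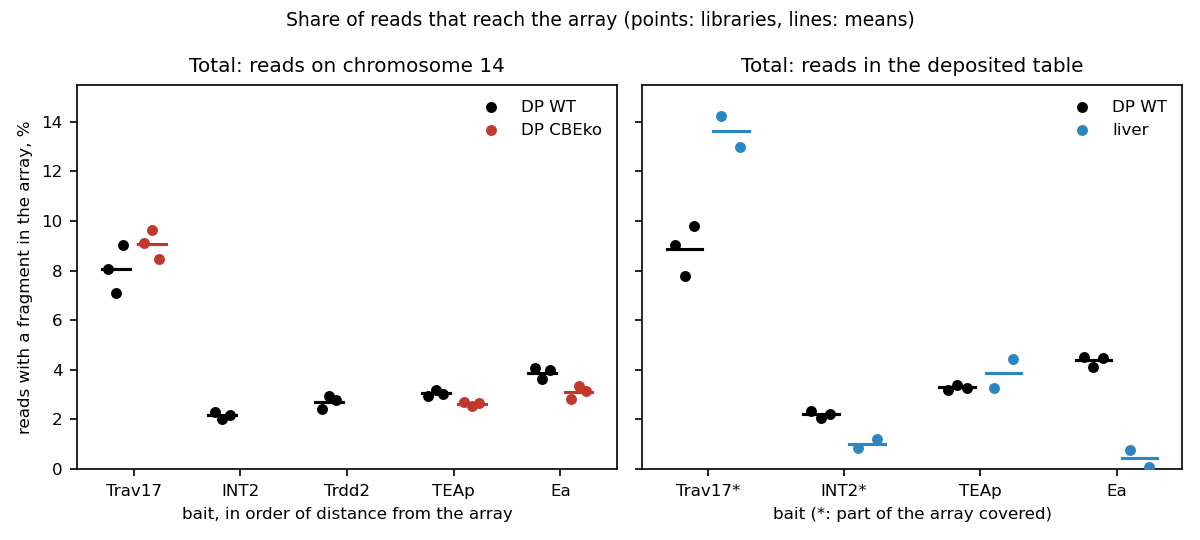
Share of reads with at least 1 fragment in the distal and central *Trav* array, in percent, by bait in order of distance. Each point is a library and each line a group mean. On the left, DP WT (black) and EACBE-/- (red, labelled DP CBEko) are given over all reads on chromosome 14, and on the right DP WT and liver over the reads of the deposited tables, which cover part of the array for *Trav17* and INT2. The Eα liver libraries lie at 0.770% and 0.0962%, below all DP WT libraries of that bait.

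The density of contacts in the array exceeded that of the equally long stretch upstream of it from every bait. The number of fragments in the array was 5.90 ± 0.39 times that of the upstream stretch for *Trav17*, 4.21 ± 0.24 for TEAp, 4.15 ± 0.13 for INT2, 3.59 ± 0.44 for Eα and 3.05 ± 0.56 for *Trdd2* (mean ± SD, n = 3), with the array nearer to every bait. At equal distance on the other side of the bait, the comparison went the other way. The log2 ratio of the fragments in the array to those in the mirrored interval was -3.27 ± 0.19 for *Trav17*, -2.04 ± 0.03 for INT2, -1.59 ± 0.20 for *Trdd2*, -0.82 ± 0.08 for TEAp and -0.09 ± 0.17 for Eα (SD, n = 3). Only the Eα libraries came near to equal numbers on both sides. Between 92.8% and 94.6% of the MboI fragments of the mirrored intervals are unique, so this ratio counts against the array, and the mirrored interval of *Trav17* holds the J segments.

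Contacts were concentrated at the end of the array nearest to the J segments. From every bait, the part nearest to the J segments, the last of the 4, held most of the array fragments, with 79.6% ± 0.19 for *Trav17*, 77.6% ± 3.0 for TEAp and 70.9% ± 3.9 for Eα (SD, n = 3). This gradient remained when the number of unique MboI fragments was taken into account. From *Trav17*, the level per unique fragment went up over the 4 equal parts from 0.03 to 0.09, 0.24 and 0.66 per 10000 fragments. From TEAp the levels were 0.01, 0.03, 0.09 and 0.23 per 10000, and from Eα 0.03, 0.05, 0.15 and 0.27.

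In windows of 60 kb, numbered 1 to 22 from the *Trav1* end, window 22 (53680001 to 53740000) held the largest part. This window carries *Trav4-4-dv10*, *Trav5-4*, *Trav6-7-dv9*, *Trav7-6*, *Trav13-3* and *Trav8-2*. It took 31.7% of the array fragments from *Trav17*, 30.4% from TEAp, 29.1% from INT2, 24.8% from *Trdd2* and 20.2% from Eα. In the Eα libraries window 21 (53620001 to 53680000, with *Trav12-3*, *Trav13-2*, *Trav14-2*, *Trav15-2-dv6-2*, *Trav3-3* and *Trav9-4*) came close to it, with 19.96%.

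A local high stood out 360 to 420 kb from the end of the array, in window 16 (53320001 to 53380000), at the end of the n copies. Its level from Eα was 19.4, 30.4 and 19.8 per 10000 fragments in the 3 DP WT libraries, and from *Trav17* 45.5, 35.4 and 37.8 per 10000. It held 10.1% ± 3.1 of the array fragments from Eα, 11.03% ± 3.1 from *Trdd2*, 8.04% ± 1.2 from *Trav17*, 7.82% ± 2.0 from TEAp and 6.18% ± 0.53 from INT2 (SD, n = 3). Window 17 on its J side was lower in every DP WT group mean, although 66.7% of its MboI fragments are unique against 57.3% in window 16. Windows 13 to 15, on the other side, have 7.41%, 5.30% and 4.44% unique fragments, so that the distal edge of this high cannot be placed.

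The far end was sparse. Window 1, where *Trav1* lies, held 1.70% (TEAp and *Trav17*) to 3.15% (Eα) of the array fragments in DP WT, at 88.2% unique fragments. Windows 8 to 10 and 13 to 15 held almost nothing and have 1.82% to 7.41% unique fragments.

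**Figure D2:**
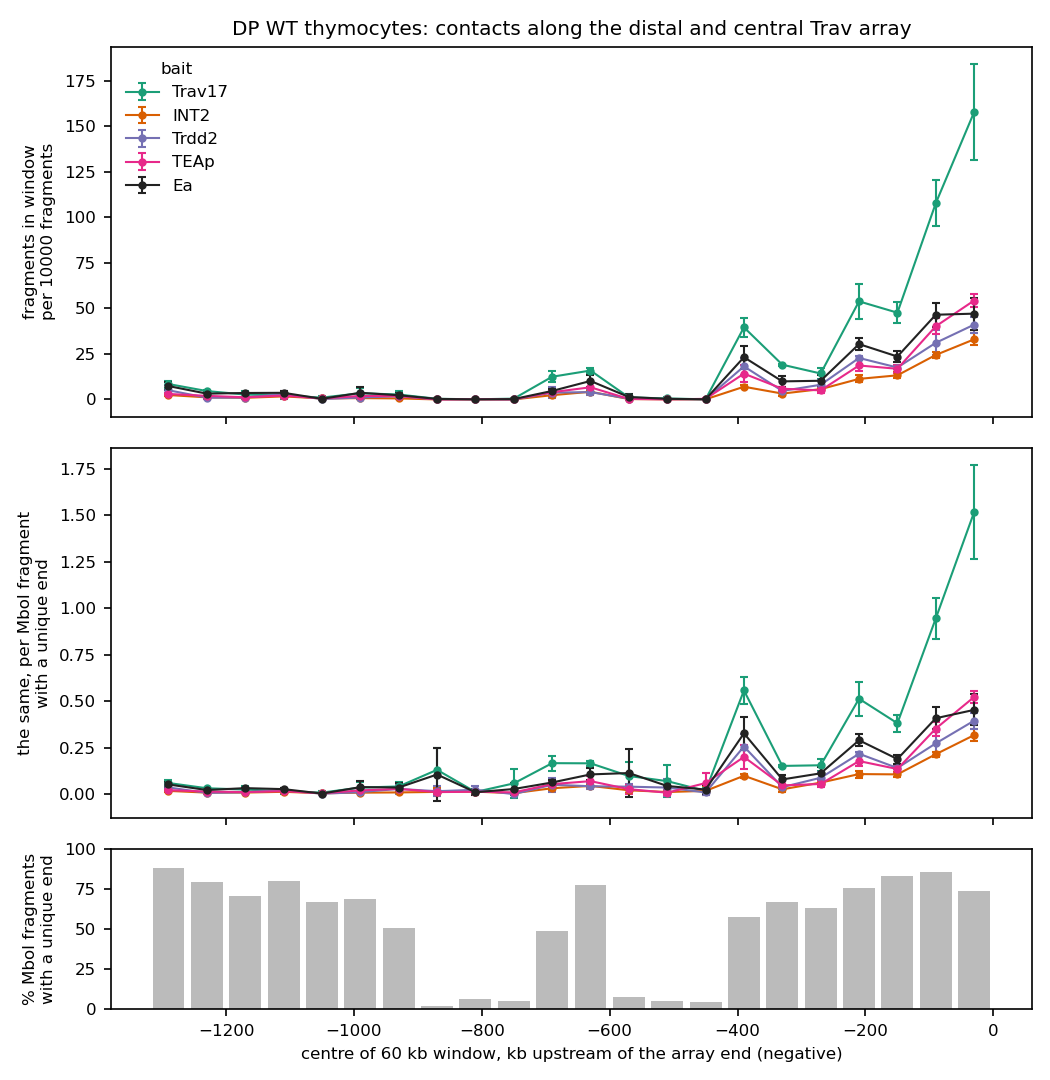
Contacts along the array in DP WT, in 60 kb windows, against the distance of the window centre from the end of the array (0 kb, nearest to the J segments). Top, fragments per 10000 on chromosome 14 by bait, middle, the same divided by the number of MboI fragments with a unique end, both as mean and SD of 3 libraries, and bottom, the percentage of MboI fragments with a unique end. The lines rise toward 0 kb, with a local high 360 to 420 kb away, and the 6 windows near the axis in the top panel are those where 1.82% to 7.41% of the fragments are unique.

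The profile along the array was alike between baits. Over the 264 bins, Pearson coefficients between libraries of a group ran from 0.57 to 0.96 (median 0.86), between DP WT libraries of different baits from 0.64 to 0.93 (median 0.83), and between genotypes of the same bait from 0.55 to 0.94 (median 0.82). The bins share the same unique fragments in all libraries, so these coefficients are a description. The bin of *Trav6-7-dv9* took 8.42%, 9.46% and 11.2% of the array fragments in the *Trav17* libraries, and 8.93%, 7.14% and 10.6% in those of TEAp. From Eα it took 7.02%, 3.14% and 6.45%, a wider spread. The bin of *Trav7-6* took 5.55%, 7.01% and 4.92% from *Trav17* and 3.63%, 3.77% and 3.88% from Eα. The *Gm43650* bin, in window 16, took 2.18%, 6.28% and 3.63% from Eα but 1.72% to 2.38% from TEAp. From *Trdd2* it took 7.63%, 7.34% and 1.28%, so its rank there did not rest on all 3 libraries. For Eα, the next bin after the 3 named ones held 2.93% on average.

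In the last of the 4 equal parts, 37 of the bins with a unique fragment overlap a V segment and 27 do not. The median level was higher in the bins with a V segment from each of the 5 baits with 3 DP WT libraries. It was 2.49 against 1.02 per 10000 fragments from Eα, 2.03 against 0.76 from TEAp and 5.71 against 2.34 from *Trav17*. From INT2 it was 1.43 against 0.72 and from *Trdd2* 1.81 against 0.78. The 16 bins with the CTCF core had medians of 2.82 (Eα), 2.23 (TEAp) and 5.36 (*Trav17*) per 10000, against 1.69, 1.20 and 3.69 in the 48 without it. The means did not all follow, with 5.73 against 6.32 from *Trav17*, 2.35 against 2.12 from TEAp and 3.06 against 2.41 from Eα. The core was in 25.8% of the bins there, and adjacent bins are not independent, so no test is given.

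The second fragment of a read tells what else was joined to the bait together with the array. The intervals for this fragment were chromosome 14 upstream of the array, the array itself, the proximal V region (53740001 to 54055000), the INTs (54055001 to 54070000), the *Tcrd* D, J and C interval (54070001 to 54150000), TEAp with the proximal J segments (54150001 to 54165000), the distal J segments (54165001 to 54220000), *Trac* with Eα (54220001 to 54230000), the flank to 54300000, and the rest of the chromosome. From Eα, the array was met together with the proximal V region in 20.7% ± 3.3 of array reads, with a second fragment in the array in 19.8% ± 3.8, with the distal J segments in 18.4% ± 1.2 and with the chromosome downstream in 15.9% ± 1.1 (SD, n = 3).
From TEAp, the proximal V region again had the highest mean, with 28.4%, 21.1% and 29.2% of array reads in the 3 libraries, followed by the array (17.6% ± 3.3), the *Tcrd* interval (13.8% ± 1.8) and the INTs (11.1% ± 1.2, SD, n = 3). This order did not hold in every library. In TEAp library 2 the array was at 21.3%. In Eα library 3 the array (20.2%) and the distal J segments (19.6%) were above the proximal V region (17.5%). From *Trav17*, which lies in the proximal V region itself, that region made up 46.2% ± 0.95 of the partners. From INT2 and *Trdd2* the interval of the bait likewise had the highest mean, with 74.1% ± 1.8 in the INTs and 25.0% ± 6.2 in the *Tcrd* interval. The same intervals are also frequent without the array. Of the fragments in reads without an array fragment, the proximal V region held 19.6% from Eα, 24.8% from TEAp and 47.3% from *Trav17*. The INTs held 53.7% from INT2 and the *Tcrd* interval 34.5% from *Trdd2*. Such reads lack the array by definition, so the totals differ, and a preference of array reads for a partner was not tested.
TEAp with the proximal J segments, where the first V-to-J joins of DP thymocytes are made, was the partner of 1.72% ± 0.46 of the array reads from Eα and 0.65% ± 0.17 of those from *Trav17*. In reads without an array fragment this interval held 3.45% and 1.21% of the fragments.

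**Figure D3:**
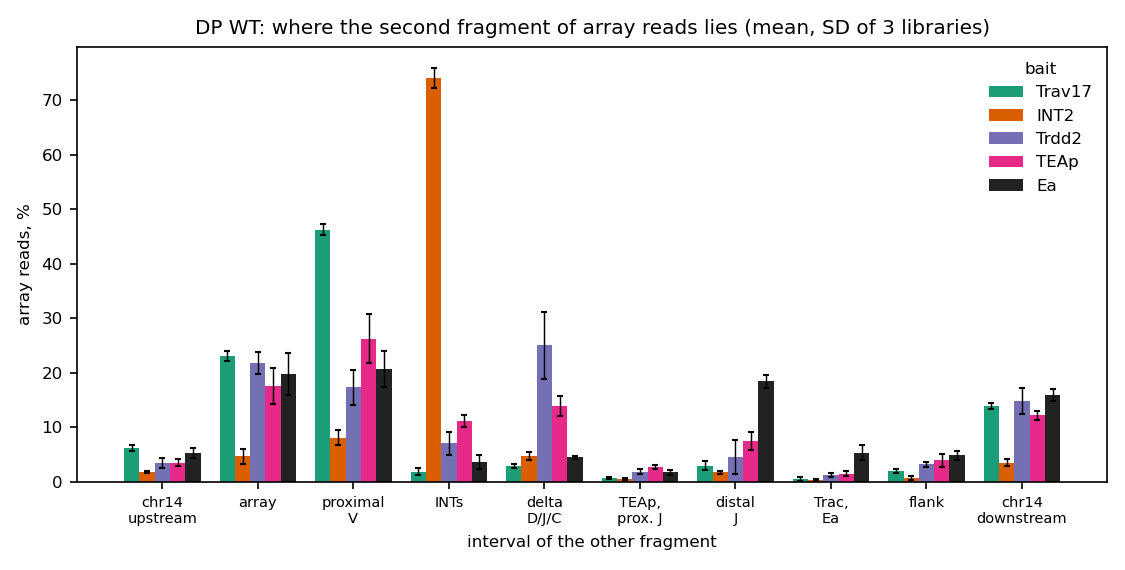
Interval of the other fragment in reads with an array fragment, in percent of these reads, for 5 baits in DP WT. Bars are means and lines the SD of 3 libraries, with intervals in the order of the chromosome. The proximal V region has the highest mean for *Trav17* (46.2%), TEAp (26.3%) and Eα (20.7%), and the INTs for INT2 (74.1%). For TEAp and Eα it was not the highest in every library.

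Reads with both fragments in the array made up 15.3% to 24.1% of the array reads in the DP WT libraries of Eα, TEAp, *Trav17* and *Trdd2*, and 3.65% to 6.26% in those of INT2. Most of these pairs were short. In the libraries of both genotypes 49.3% to 90.7% of them fell in a single bin and 77.5% to 95.6% spanned no more than 60 kb. Contacts that join distant points of the array with each other and with a bait were thus a small part of the reads.

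The comparison of EACBE-/- with WT thymocytes asks whether loss of this CTCF-binding element changes how Eα, TEAp and *Trav17* meet the array. From Eα and TEAp the share of reads reaching the array was lower in every library without EACBE, and from *Trav17* the mean was higher. The Eα libraries of EACBE-/- gave 2.82%, 3.36% and 3.17% (3.11% ± 0.27, SD, n = 3), all below the 3 WT libraries, a difference of -0.77 percentage points and a ratio of 0.80. The TEAp libraries gave 2.72%, 2.53% and 2.65% (2.63% ± 0.10, SD, n = 3), also all below WT, with a difference of -0.42 percentage points and a ratio of 0.86.
Those of *Trav17* gave 9.10%, 9.64% and 8.48% (9.08% ± 0.58, SD, n = 3), which overlapped with WT at a difference of 1.01 percentage points. The exact two-sided permutation test gave p = 0.1 for Eα and TEAp, the smallest that 3 against 3 libraries allow, and p = 0.2 for *Trav17* (adjusted over the 3 baits, 0.15, 0.15 and 0.2). None passed a threshold of 0.05, which this design cannot reach. Without window 22 the TEAp difference was -0.09 percentage points (p = 0.6, exact permutation test), and that of Eα was -0.43 with no overlap. Without WT library 2 of *Trav17* its difference was 0.52 percentage points.

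The position along the array overlapped between the genotypes. The last of the 4 equal parts held 67.4% ± 2.5 of the array fragments in EACBE-/- against 70.9% ± 3.9 in WT for Eα, 70.8% ± 4.7 against 77.6% ± 3.0 for TEAp, and 81.6% ± 2.5 against 79.6% ± 0.19 for *Trav17* (SD, n = 3). The groups overlapped for each bait (p = 0.2, 0.2 and 0.4, exact permutation test). Relative to the mirrored interval, TEAp was the 1 bait whose groups did not overlap, with log2 ratios of -0.54, -0.45 and -0.42 in EACBE-/- against -0.89, -0.74 and -0.82 in WT (p = 0.1, adjusted p = 0.3, exact permutation test). These ratios were higher in EACBE-/- while the share of reads in the array was lower.

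Window by window, the test found no change in the array. With edgeR's quasi-likelihood test, 0 of 20 array windows of 60 kb passed a Benjamini-Hochberg adjusted p of 0.05 for Eα, 0 of 19 for TEAp and 0 of 22 for *Trav17*, where 1.39%, 1.42% and 0.559% of all windows tested on chromosome 14 passed. In 5 kb bins none of 109, 130 and 130 array bins passed, against 0.921%, 1.56% and 0.155% of all bins tested. At an unadjusted p under 0.05 there were 1, 1 and 1 windows and 1, 4 and 5 bins. The median log2 fold change of the array windows was -0.22 for Eα, -0.00 for TEAp and 0.09 for *Trav17*, beside -0.13, -0.03 and -0.02 over all windows tested.
Window 22, next to the proximal V region, was the 1 array window with an unadjusted p under 0.05 for Eα and for TEAp. From Eα its counts were 817, 214 and 330 in WT and 70, 107 and 139 in EACBE-/-, which is 47.1 against 27.8 per 10000 fragments on average and a log2 fold change of -0.76 (SE 0.31, edgeR adjusted p = 0.579). From TEAp the counts were 1058, 744 and 1270 in WT and 740, 559 and 315 in EACBE-/-, or 54.3 against 37.8 per 10000 (log2 fold change -0.52, SE 0.18, edgeR adjusted p = 0.252). For both baits the libraries per 10000 did not overlap. DESeq2 put both below the threshold (adjusted p = 0.0170 and 0.00516), and counting each distinct pair once did so for TEAp (adjusted p = 8.28e-06, edgeR). Of all windows tested, 14 of 863 passed with DESeq2 for Eα and 20 of 1268 for TEAp, and 17 of 798 with distinct pairs for TEAp.
From *Trav17*, the libraries overlapped in window 22 (log2 fold change 0.13), and window 21 was 143 per 10000 in EACBE-/- against 108 in WT (log2 fold change 0.41, SE 0.13, edgeR adjusted p = 0.2), past the threshold with DESeq2 (adjusted p = 0.0287) and with distinct pairs (0.00374). For this bait 9 of 1073 windows passed with DESeq2 and 6 of 641 with distinct pairs. Among the named bins, that of *Trav7-6* was the 1 that came nearest to the threshold, from TEAp, at 10.6 per 10000 in WT and 4.90 in EACBE-/- (log2 fold change -1.11, SE 0.35, edgeR adjusted p = 0.0873). It passed with DESeq2 (adjusted p = 0.00502) and with distinct pairs (0.000159, edgeR). The *Gm43650* bin was at 3.55 per 10000 in WT and 7.25 in EACBE-/- from TEAp, and passed in the same 2 settings (adjusted p = 0.0415 with DESeq2 and 0.0211 with distinct pairs in edgeR). With DESeq2 alone, the bin 82.5 kb from the end passed as lower from TEAp (adjusted p = 0.0135) and from *Trav17* (0.0141), and the bin 67.5 kb from the end as higher from *Trav17* (0.0319). Of all bins tested, 87 of 3469 passed with DESeq2 for TEAp and 44 of 3222 for *Trav17*, and 73 of 1199 with distinct pairs for TEAp. The bin of *Trav6-7-dv9*, 10 kb upstream of that of *Trav7-6*, was at 15.9 per 10000 in WT and 13.7 in EACBE-/- from TEAp, with overlapping libraries (log2 fold change -0.21, SE 0.23). In simulated counts of the same depth, 4.5%, 8% and 14% of the windows changed by a log2 fold change of 2 were recovered for Eα, TEAp and *Trav17*. The changed windows were drawn from all windows tested on chromosome 14. Among those in the array, 0 of 6, 1 of 4 and 0 of 4 were recovered, so changes of this size could be missed. Recovery was not measured for windows 21 and 22 alone, where the SE above were 0.13 to 0.31.

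**Figure D4:**
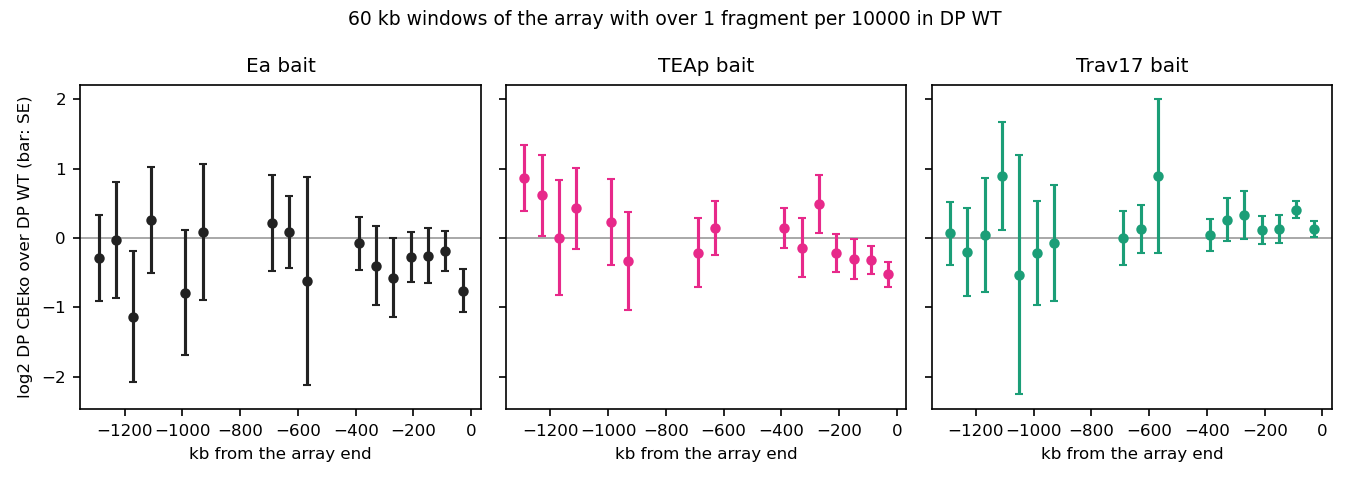
Log2 fold change of EACBE-/- (labelled DP CBEko) over DP WT, with its SE from edgeR, in 60 kb windows of the array that held over 1 fragment per 10000 in DP WT, against the distance from the end of the array. No window passed the threshold for any of the 3 baits. The window nearest to 0 kb is at -0.76 for Eα, -0.52 for TEAp and 0.13 for *Trav17*.

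The partners of the array were compared between genotypes in the same way. In 8 of 30 combinations of bait and interval the libraries did not overlap, while in reads without an array fragment 81.5% of such combinations did not. The smallest adjusted p was 0.375 (exact permutation test over 30 combinations). From *Trav17*, the INTs were the partner of 0.65%, 0.94% and 0.23% of array reads in EACBE-/- against 2.38%, 1.08% and 1.98% in WT, and the chromosome downstream of 54300000 of 19.6%, 18.7% and 18.4% against 13.2%, 14.1% and 14.2%. From TEAp, the flank between 54230001 and 54300000, just beyond Eα and the place of the deleted element, was the partner of 7.70%, 6.92% and 6.11% against 2.59%, 4.33% and 4.89%. From Eα no interval separated the genotypes, and the proximal V region was at 17.6%, 16.4% and 15.1% against 20.7%, 24.0% and 17.5%. With each distinct pair counted once, 7 of 30 combinations did not overlap, among them the INTs and the downstream chromosome from *Trav17*, the flank from TEAp and the proximal V region from Eα. In reads without an array fragment, all copies counted, these intervals shifted in the same direction, with no overlap between genotypes. From *Trav17*, the INTs held 2.34% of the fragments in EACBE-/- against 3.21% in WT, and the downstream chromosome 28.7% against 24.5%. The flank from TEAp held 10.0% against 4.20%, and the proximal V region from Eα 13.9% against 19.6%. These shifts were thus not particular to array reads. Of the 8 combinations, only the chromosome upstream of the array, from *Trav17*, went the other way. It was the partner of 5.26% of array reads in EACBE-/- against 6.18% in WT on average. In reads without an array fragment it held 9.17% against 7.84%, again with no overlap.

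Liver cells do not rearrange this locus. Their single reads were not used here, so DP WT and liver were compared in the deposited tables of bin pairs, which cover the whole array for Eα and TEAp, 55.7% of it (from 53005001) for INT2 and 55.3% (from 53010001) for *Trav17*. The liver tables hold 2207 and 1040 reads for Eα, 4852 and 1217 for TEAp, 34299 and 14758 for INT2, and 1818 and 994 for *Trav17*. From Eα few liver reads reached the array. The share was 0.770% and 0.0962%, against 4.53%, 4.12% and 4.49% in DP WT. From INT2 it was reached by 0.837% and 1.20% of the reads, against 2.34%, 2.04% and 2.22%.
From TEAp the shares overlapped, with 3.28% and 4.44% in liver and 3.201%, 3.41% and 3.28% in DP WT. From *Trav17*, the bait nearest to the array, they were higher in liver, with 14.2% and 12.98% against 9.03%, 7.77% and 9.81%. The exact two-sided permutation test gave p = 0.1, the smallest that 3 against 2 libraries allow, for Eα, INT2 and *Trav17* (adjusted p = 0.133), and p = 0.3 for TEAp. For Eα, TEAp and *Trav17*, reads with both fragments in the array made up more of the array reads in every liver library than in DP WT. They were 11 of 17 and 1 of 1 array reads for Eα, 110 of 159 and 27 of 54 for TEAp, and 107 of 259 and 82 of 129 for *Trav17*, against 16.3% to 27.1% in DP WT. For INT2 it was the reverse, with 1.39% and 2.82% in liver against 3.92%, 6.06% and 4.05%.
With only the reads that have 1 fragment in the array, the TEAp shares were 1.01% and 2.22% in liver, both below the 2.68%, 2.62% and 2.72% of DP WT, and those of *Trav17* overlapped, with 8.36% and 4.73% against 6.80%, 5.87% and 7.15%. The Eα shares were then 0.272% and 0 of 1040 reads, which allows a share of up to 0.288%, against 3.73%, 3.08% and 3.48%. This choice was made after seeing the data. It turned the direction for TEAp and left the *Trav17* difference at -0.06 percentage points.

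From Eα 5 of 18 array windows were lower in liver, windows 16 and 19 to 22, where 33.3% of all windows of the table were. That share includes the array windows, and some of the 18 could not be judged. Whether lower windows were more frequent in the array is therefore not decided. Windows 2 to 10 and 13 to 15 could not be judged, because DP WT itself lay below the 4.62 per 10000 to which 3 liver fragments correspond. Window 22 held 0 liver fragments and 58.8 per 10000 in the 3 DP WT libraries summed, which is at least 12.7-fold lower in liver with 3 counts over both libraries as the floor (edgeR adjusted p = 5.27e-06). Windows 16, 19, 20 and 21 were lower too, with 1 or 2 liver fragments each, and DP WT over liver ratios of 8.50 (exact 95% interval of the counts 2.34 to 70.3), 21.4 (3.82 to 845), 9.52 (2.62 to 78.8) and 17.98 (4.97 to 149). The intervals cover counting error only, since reads of 1 ligation product cannot be told from PCR copies. From INT2, 2 of 12 array windows were lower in liver, windows 20 and 22 (log2 fold change -1.69 and -2.65), where 33.3% of all windows were, array windows included.
From TEAp 5 of 18 array windows passed, 1 of them lower and 4 higher in liver. Window 22 was lower, at 6.59 against 61.0 per 10000 over the summed libraries (log2 fold change -3.02, edgeR adjusted p = 9.21e-05), where 20.5% of all windows were lower. Windows 1 to 4, at the *Trav1* end, were higher, with log2 fold changes of 2.95, 4.24, 4.06 and 4.30 (edgeR adjusted p = 0.00175, 0.000208, 0.000415 and 9.63e-06), where 38.5% of all windows were higher. Without liver library 1, windows 2 and 4 passed and windows 1 and 3 did not. The 4 windows rest on few ligation products, with 44 reads in 13 pairs of bins in 1 liver library and 32 reads in 6 pairs of bins in the other. From *Trav17*, 5 of 11 array windows, numbers 12, 16, 17, 21 and 22, were higher in liver (log2 fold changes 1.29, 1.36, 1.74, 0.84 and 0.63), where 32.4% of all windows were. Without DP WT library 1, 2 windows passed, and without DP WT library 2, 1 did.

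**Figure D5:**
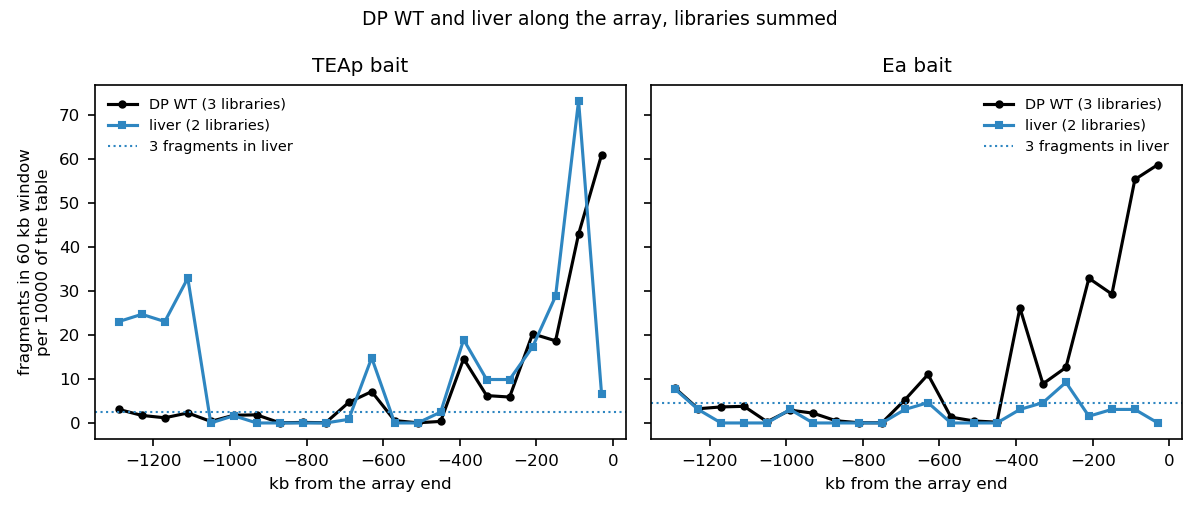
Fragments per 60 kb window of the array, per 10000 of the deposited table, for TEAp (left) and Eα (right), with the 3 DP WT (black) and the 2 liver (blue) libraries summed, against the distance from the end of the array. The dotted line marks 3 fragments in liver. From Eα the liver line stays near the dotted line while DP WT reaches 58.8, and from TEAp liver is above DP WT over the first 4 windows and falls to 6.59 in the last.

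The 25 DP libraries held 14307 to 328127 reads with both fragments on chromosome 14, and 403 to 12423 of these reached the array. Each distinct pair of fragments was seen 1.69 to 10.1 times on average in the 22 libraries with single reads. *Trav17* library 3 of DP WT stood apart, with 10.1 copies of 13683 distinct reads, and its array share was the highest of its group. Without it the *Trav17* difference between genotypes was 1.496 percentage points, with no overlap.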

How the data were processed

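3C-HTGTS three-way contacts on chromosome 14 were analysed in 33 libraries. Per the submitters' processing notes, fastp 0.20.0, cutadapt 1.18, Bowtie2 2.4.5, SAMtools 1.9, bedtools 2.29.2 and mm10 were used. The authors deposited raw counts for each combination of 5 kb bins, and for 22 DP libraries the single reads with their first 2 fragments after the bait. Reads were placed by fragment midpoint. For INT2 in DP WT, deposited counts of bin pairs that also place a fragment by its midpoint were used. The deposited tables used for every comparison with liver place a fragment by its end, and there the total is the table.

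Windows of 60 kb and 5 kb bins over chromosome 14 with at least 10 counts were compared within a bait by edgeR 4.0.16 (quasi-likelihood test, library size as total) in R 4.3.3, with Benjamini-Hochberg adjustment. Shares were compared by exact permutation tests. Uniqueness was computed from mm10 ends of 50 bases. For the comparison of genotypes, the test was run on simulated counts with 200 features over chromosome 14 changed. Alternatives were TMM, DESeq2 1.42.0, no filter, distinct pairs, other totals, exclusions of bins, each library left out and a replicate block. Confidence intervals are 95%.

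The bins, intervals and lists were chosen with earlier results of these data known. Named bins are, for each bait, the 3 with the highest mean share of array fragments in DP WT among bins seen in every library, and up to 3 array features per comparison past the threshold. For 60 kb windows against liver all called windows are given. Other steps ran in Python 3.11.15 with pandas 2.3.3, scipy 1.17.1 and numpy 2.4.6, and figures in matplotlib 3.10.9.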

Additional observations from a re-analysis of the deposited data

How the results depend on the processing

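Of 423 recomputed values for 44 results, 381 stayed the same, 38 moved and 4 reversed, and the cause was not tested. For differences, the same means an unchanged direction, whatever the p-value. For counts of calls it means an equal or similar number, which need not be the same features. The difference between liver and DP WT for TEAp became -0.0193 percentage points without liver library 2 (-0.0193 to 1.14 with 1 library left out) and -1.06 without pairs inside the array, that for *Trav17* became -0.0598 without such pairs, and *Trdd2* minus TEAp became 0.17 with distinct pairs. Array features called in EACBE-/- rose from 0 with DESeq2 to 1 window for each of Eα, TEAp and *Trav17* and to 4 bins each for TEAp and *Trav17*, and with distinct pairs to 1 window for TEAp and *Trav17*, 2 bins for TEAp and 1 for *Trav17*. With DESeq2 the 4 bins were out of 130 array bins, where 87 of 3469 (TEAp) and 44 of 3222 (*Trav17*) passed over chromosome 14. DESeq2 called 14 of 863, 20 of 1268 and 9 of 1073 windows there. With distinct pairs the bins were 2 of 105 and 1 of 105, where 73 of 1199 and 17 of 1021 passed over chromosome 14. For windows, distinct pairs called 17 of 798 (TEAp) and 6 of 641 (*Trav17*) there. Leaving out 1 library gave 0 to 1 bins for TEAp and for *Trav17*. The bin called for TEAp was that of *Trav7-6*, without EACBE-/- library 1 or WT library 1, and that for *Trav17* came without WT library 3. Against liver, leaving out 1 library gave 1 to 3 array windows for INT2 (1 without liver library 1) and 1 to 4 for *Trav17* (3 without liver library 1), and TMM normalization gave 3 for *Trav17*.

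Replicate numbers did not pair the libraries, as same-numbered deviations correlated between -0.04 and 0.06. With the replicate block, 1 bin (*Trav7-6*, adjusted p = 0.0319) was called for TEAp, 3 liver windows for Eα in place of 5, and 0 for *Trav17*. The block changed no other count of array calls.

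Over chromosome 14, calls in EACBE-/- also moved. In 5 kb bins they went from 21 to 43 (distinct pairs), 12 (block) and 11 (without WT library 3) for Eα, from 54 to 87 (DESeq2) and 35 (without EACBE-/- library 2) for TEAp, and from 5 to 44 (DESeq2), 17 (distinct pairs), 2 (block) and 2 to 11 (1 library left out) for *Trav17*. In windows for TEAp they went from 18 to 11 (TMM, or without EACBE-/- library 3) and 10 (block). Against liver, the 19 windows for *Trav17* became 12 and 6 without DP WT libraries 1 and 2, and 0 with the block.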
